A study of Mus musculus with 6 samples.

Results

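The 9 genes described here are the mouse NLRP paralogs Nlrp4a, Nlrp4b, Nlrp4c, Nlrp4e, Nlrp4f, Nlrp9a, Nlrp9b, Nlrp9c and Nlrp14, of 53700 gene rows in the count tables. They were chosen by name as members of the NLRP4, NLRP9 and NLRP14 groups that oocytes express, with earlier results of these data known. The libraries hold polyA RNA of mouse germinal vesicle (GV) oocytes, which are arrested in prophase of meiosis and store maternal mRNA. There were 3 libraries of Zar1 knockout oocytes and 3 of wild-type oocytes, each from a pool of 10 oocytes and all on the C57BL/6N background. The sources used here give neither the knockout allele nor the age of the animals. ZAR1 is an oocyte protein that binds RNA, and the study concerned how oocytes store mRNA at their mitochondria. The labels number the pools as biological replicates without saying that each came from other animals, and p-values therefore cover the variation among pools only.

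NLRP proteins carry an N-terminal pyrin domain, a central NACHT nucleotide-binding domain and C-terminal leucine-rich repeats. Some family members build inflammasomes, which activate caspase-1 and the release of interleukin-1 beta. Others are maternal: their mRNA is stored in the growing oocyte and their proteins act around fertilization and the first cleavages. In the mouse the NLRP4 and NLRP9 groups have expanded into several copies, so that one human gene has several mouse relatives. NLRP14 is known in the mouse as a maternal protein needed for early embryonic development. NLRP4 and NLRP14 of humans have been described as brakes on nucleic acid sensing, and mouse Nlrp9b as an inflammasome sensor of the intestine. Nlrp4e has been studied in mouse oocytes and early embryos as a maternal gene.

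In Zar1 knockout oocytes 1 of the 9 paralogs, Nlrp4b, was lower and none was higher than in wild type. The fall of Nlrp4b was 0.46 ± 0.06 on the log2 scale (SE, edgeR quasi-likelihood adjusted p = 0.000902). The call rule was an adjusted p under 0.05 over all 16473 tested genes. Over all of these, 33.4% were called, 14.9% as higher and 18.5% as lower. The count of 0 paralogs higher in edgeR was also 0 at an unadjusted p under 0.05, and 0 in DESeq2 and limma-voom. It was 4 with offsets for transcript GC content and length, 2 with those offsets and a replicate block, and 1 without knockout replicate 3. All 9 paralogs passed the filter on low counts. Log2 fold changes of knockout over wild type were positive for 4 and negative for 5 paralogs, with a median of -0.04 beside 0.01 over all tested genes. The CPM of the libraries (gene counts relative to library size, with TMM factors) did not overlap between genotypes for 2 of the 9 paralogs, beside 47.8% of all tested genes. Knockout lay lower for Nlrp4b, beside 25.5% of tested genes, and higher for Nlrp4a, beside 22.2%.

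The paralogs were alike enough in sequence that the counting of reads had to be looked at first. Coding sequences within the NLRP4 group were 77.8% to 93.9% identical over 10 pairs in GENCODE M21 transcripts. Nlrp4c and Nlrp4e were the closest pair, and Nlrp4b was the most distant of the 5, at 77.8% to 79.0% from the others. Within the NLRP9 group the 3 pairs shared 82.8% to 87.7% of their coding bases. Between the NLRP4 and NLRP9 groups identity was 57.8% to 61.4%, and NLRP14 shared 59.2% to 61.0% with the other 8 genes.

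**Figure D1:**
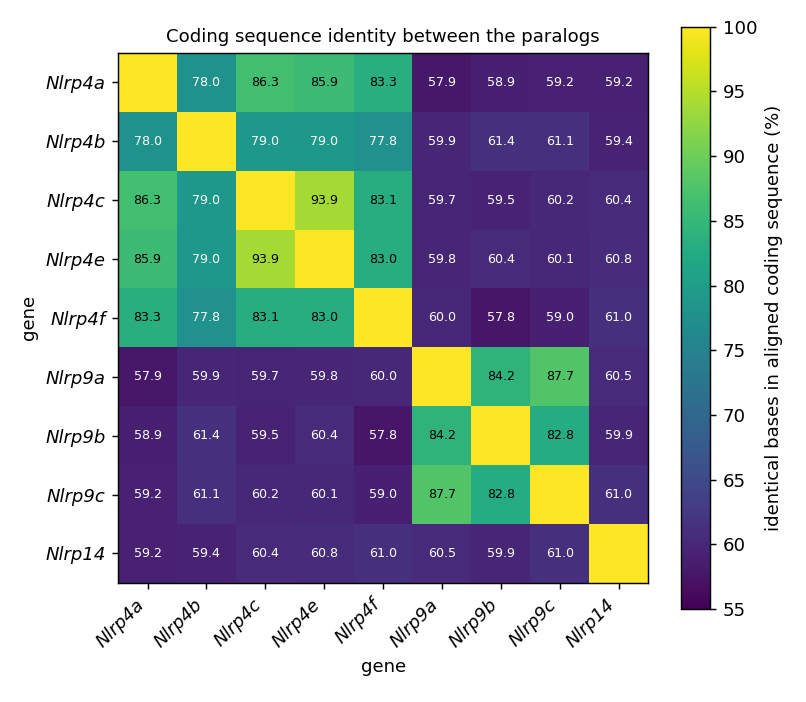
Heat map of the percentage of identical bases in pairwise alignments of the coding sequences of the 9 paralogs, both axes listing the genes. The NLRP4 and NLRP9 groups stand out as blocks above 77%, with Nlrp4c and Nlrp4e at 93.9%, and all pairs between groups lie under 62%.

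Stretches of coding sequence show where reads that lie inside them could not be told apart. These 75 bases, positions 121 to 195 of the coding sequence, lie inside the longest stretch that Nlrp4c and Nlrp4e share exactly (120 bases), and capitals mark bases that differ from Nlrp4e. Nlrp4a differed at 6 and Nlrp4b at 12 of them, and Nlrp4f, which aligned with a gap here, is not shown.
Nlrp4e: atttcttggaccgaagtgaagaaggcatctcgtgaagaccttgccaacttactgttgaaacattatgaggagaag
Nlrp4c: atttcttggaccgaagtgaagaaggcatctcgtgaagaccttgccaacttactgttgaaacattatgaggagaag
Nlrp4a: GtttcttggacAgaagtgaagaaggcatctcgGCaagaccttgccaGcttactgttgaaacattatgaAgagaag
Nlrp4b: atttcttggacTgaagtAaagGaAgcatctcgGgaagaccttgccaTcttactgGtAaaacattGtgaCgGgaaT
The next 75 bases, coding positions 589 to 663, open the longest stretch that Nlrp9a and Nlrp9b share exactly (129 bases), with capitals where Nlrp9c differs from Nlrp9a, at 10 positions.
Nlrp9a: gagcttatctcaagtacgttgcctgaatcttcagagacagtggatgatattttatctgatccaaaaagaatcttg
Nlrp9b: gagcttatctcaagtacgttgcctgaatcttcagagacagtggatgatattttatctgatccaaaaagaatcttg
Nlrp9c: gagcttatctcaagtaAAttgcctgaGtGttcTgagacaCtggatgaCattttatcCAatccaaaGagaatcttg

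Reads that aligned to several places were set aside by the counting and entered no gene. They were 13.9% to 15% of reads in knockout libraries and 14.4% to 14.9% in wild-type libraries. The sources used here give no read length, so the share of each transcript that is its own was computed for several lengths. The longest protein-coding transcript of each paralog was searched against annotated transcripts. Its other exons and the rest of the genome were not examined. At 75 bases all stretches of Nlrp4b and Nlrp14 occurred in no transcript of another gene. The shares were 99.6% for Nlrp4a, 98.4% for Nlrp9c, 97.8% for Nlrp9a, 97.6% for Nlrp4f, 96.9% for Nlrp9b and 96.6% for Nlrp4c. Nlrp4e had the least of its own, 79.8% at 75 bases, 63.1% at 50 bases and 96.6% at 150 bases. Its shared stretches matched the unprocessed pseudogenes Gm16443, Gm4541, Gm8486, Gm8685 and Gm8728 on chromosome 7, with up to 218 identical bases, at coding positions 280 to 497 of Nlrp4e. These 5 pseudogenes collected few counts themselves. Gm8728, the highest of them, had 19 counts over the 3 knockout libraries and 35 over the 3 wild-type libraries. Levels of Nlrp4e, and to a lesser degree of Nlrp4c and the other paralogs with shared stretches, are therefore uncertain and may be understated.

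**Figure D2:**
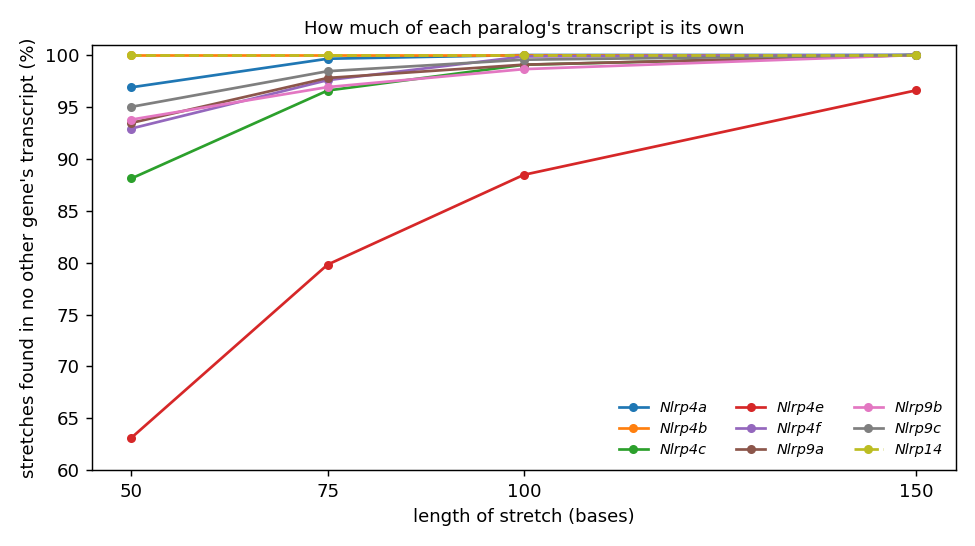
Share of the stretches of each paralog's longest protein-coding transcript (y axis, %) that occur in no annotated transcript of another gene, for stretches of 50, 75, 100 and 150 bases (x axis). Nlrp4b and Nlrp14 lie at 100% throughout, and Nlrp4e lies lowest at every length, between 63.1% and 96.6%.

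The exons of 8 paralogs overlapped no other gene of the annotation, and those of Nlrp9b overlapped the processed pseudogene Gm18877 by 136 bases. All paralogs lie on chromosome 7 except Nlrp4f, which lies on chromosome 13. Their coding sequences run from 2589 bases in Nlrp4b to 3012 bases in Nlrp9a and Nlrp9c.

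Among the NLRP4 genes, only Nlrp4b (ENSMUSG00000034087) was called in the fit as reported. It had 508, 517 and 498 CPM in knockout replicates 1, 2 and 3, against 679.7, 675 and 738 CPM in wild-type replicates 1, 2 and 3. Each knockout library lay below each wild-type library, and the knockout libraries lay closer to one another than the wild-type ones did. The values rest on 17737 to 19274 counts per knockout library and 23805 to 27363 per wild-type library. The longest protein-coding transcript of Nlrp4b shared no stretch with annotated transcripts of other genes at the lengths examined. It has 3326 bases, beside 4491 in the merged exons of the gene. The means were 508 ± 9.34 CPM in knockout and 698 ± 35.0 CPM in wild type (SD, n = 3 each). The fall kept its direction in all 17 alternatives, at log2 fold changes between -0.495 and -0.214, and its call in 16. Correcting each library for transcript GC content and length reduced it to -0.21 (adjusted p = 0.0321). With the replicate number added to these offsets as a block, the adjusted p was 0.068. With the block and no offsets it was 0.00475.

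Nlrp4a (ENSMUSG00000040601), the NLRP4 gene with the most counts, did not pass the test. Its levels were 1121, 1146 and 1159 CPM in knockout libraries and 1051, 1102 and 1090.1 CPM in wild-type libraries. All knockout libraries lay above all wild-type ones, by a small margin. The log2 fold change was 0.08 ± 0.06 (SE, edgeR adjusted p = 0.333). With GC and length offsets it was 0.32 and passed (adjusted p = 0.00354), also with the block (adjusted p = 0.0118).

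Nlrp4f (ENSMUSG00000032999), the copy on chromosome 13, had 925, 999.5 and 988 CPM in knockout libraries and 971, 1020.5 and 1032 CPM in wild-type libraries. The ranges overlapped, and the log2 fold change of -0.05 ± 0.06 was smaller than its standard error (edgeR adjusted p = 0.555).

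Nlrp4e (ENSMUSG00000045693) had 140.4, 171 and 112 CPM in knockout libraries and 187, 164 and 173 CPM in wild-type libraries. Knockout replicate 2 fell among the wild-type values, and the other knockout libraries lay below them. The log2 fold change was -0.31 ± 0.14 and did not pass (edgeR adjusted p = 0.121). Without knockout replicate 2 it was -0.46 and passed (adjusted p = 0.0183), and without knockout replicate 3 it was -0.17 (adjusted p = 0.24).

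Nlrp4c (ENSMUSG00000034690) was the scarcest of the 9, with 19.1, 21.6 and 21.1 CPM in knockout libraries and 26.3, 20.9 and 24.6 CPM in wild-type libraries. The ranges overlapped through wild-type replicate 2, and the log2 fold change of -0.22 ± 0.13 did not pass (edgeR adjusted p = 0.221).

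The NLRP9 genes lay close together and none of the 3 passed the test. Nlrp9a (ENSMUSG00000054102) had 534, 547 and 472 CPM in knockout libraries, against 490.0, 444 and 485 CPM in wild-type libraries. Nlrp9b (ENSMUSG00000060508), whose protein acts as a sensor in the mouse intestine, had 638, 651 and 556 CPM in knockout libraries and 621, 576 and 607 CPM in wild-type libraries. Nlrp9c (ENSMUSG00000040614) had 628, 666 and 599 CPM in knockout libraries and 635, 629 and 683 CPM in wild-type libraries. The ranges of the genotypes overlapped for each of the 3 genes, and knockout replicate 3 was the lowest knockout library for each. Log2 fold changes were 0.13 ± 0.08 for Nlrp9a, 0.03 ± 0.08 for Nlrp9b and -0.04 ± 0.07 for Nlrp9c, with edgeR adjusted p-values of 0.237, 0.792 and 0.689. With GC and length offsets all 3 passed as higher, Nlrp9a at 0.35, Nlrp9b at 0.24 and Nlrp9c, with the other sign, at 0.23 (edgeR adjusted p-values of 0.0096, 0.0496 and 0.034). With the replicate block added to the offsets, Nlrp9a kept that call (adjusted p = 0.0225), and Nlrp9b and Nlrp9c lost it (adjusted p = 0.0751 and 0.0717).

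Nlrp14 (ENSMUSG00000016626) was the most abundant of the 9. It had 2165, 2319.6 and 1604 CPM in knockout libraries and 1922, 1810.2 and 1996 CPM in wild-type libraries. Knockout replicates 1 and 2 lay above all wild-type libraries and knockout replicate 3 lay below them all. The log2 fold change was 0.09 ± 0.12 (edgeR adjusted p = 0.626). Without knockout replicate 3 it was 0.23 and passed (adjusted p = 0.024), and without knockout replicate 2 it was -0.01 (adjusted p = 0.955).

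**Figure D3:**
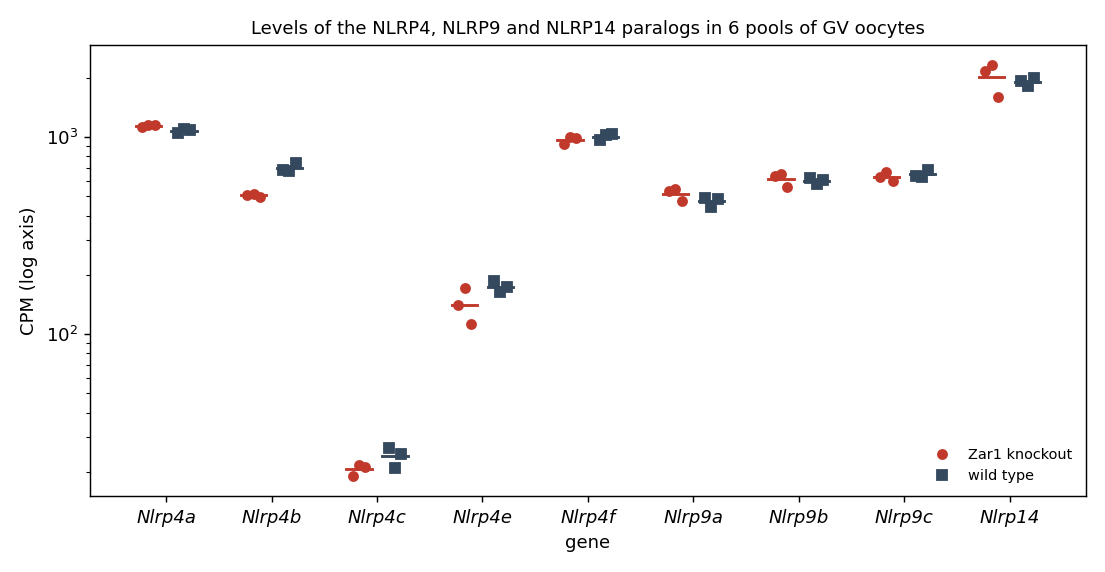
CPM of each paralog (y axis, log scale) in 3 Zar1 knockout libraries (red circles, left of each pair) and 3 wild-type libraries (dark squares, right), with the group mean as a line. The knockout libraries of Nlrp4b lie at 498 to 517 CPM, below the wild-type libraries at 675 to 738 CPM, and those of Nlrp14 spread from 1604 to 2319.6 CPM.

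Several paralogs had their lowest or highest value in the same library. Knockout replicate 3 was the lowest knockout library for 6 of the 9 genes, and knockout replicate 2 the highest for 8. Among wild-type libraries, replicate 2 was the lowest for 7. How often these libraries were the lowest or highest over all tested genes was not computed. The 9 paralogs together took 0.649 ± 0.0528% of gene counts in knockout and 0.670 ± 0.0247% in wild type (SD, n = 3 each). In knockout replicate 3 they took 0.590%, the lowest share of the 6 libraries. The cause of this spread was not tested.

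The transcripts of the 9 paralogs hold 39% to 43.3% GC, below the median of 48.6% over tested genes. The 2482 tested genes with GC content in that range had a median log2 fold change of -0.16, with 27.6% called lower and 9.15% called higher. Among the 13213 genes richer in GC the median was 0.04, with 16.4% called lower and 16.2% higher. Nlrp4b and, uncalled, Nlrp4e and Nlrp4c lay below the median of genes of like GC content, while the values of Nlrp4a, Nlrp4f, Nlrp14 and the NLRP9 genes, none of them called, lay above it. The part of GC content in these values was not tested beyond the offsets.

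**Figure D4:**
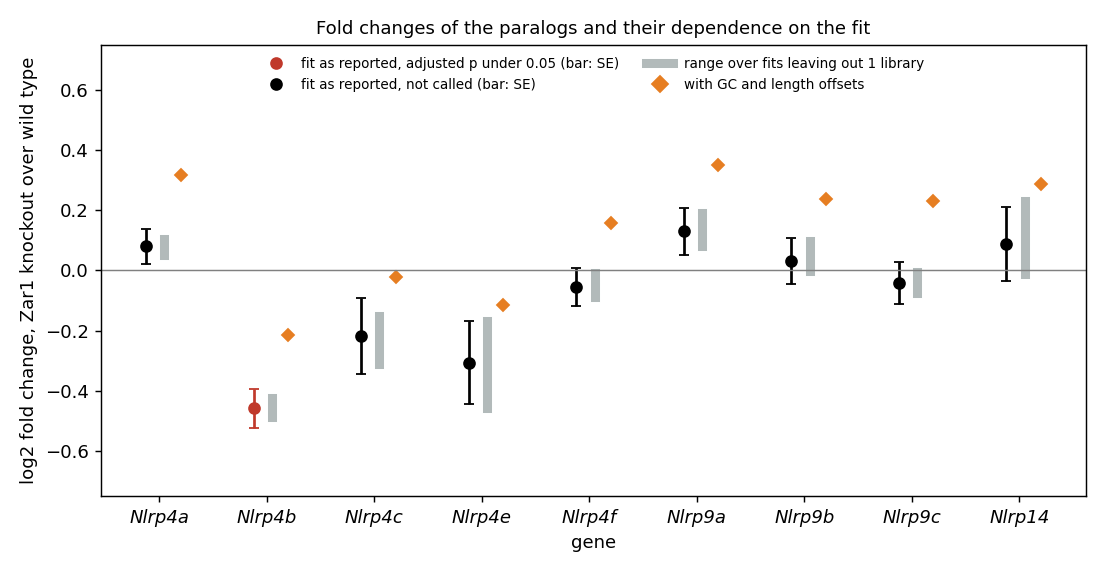
Log2 fold change of each paralog, Zar1 knockout over wild type (y axis), from the fit as reported (circles with SE bars, red where called), over fits that leave out 1 library (grey bars, lowest to highest) and with GC and length offsets (orange diamonds). Nlrp4b at -0.46 is the only paralog called in the reported fit, and the offsets move all 9 upward.

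Ratios between paralogs do not depend on how libraries are scaled, and 2 of the 4 ratios of Nlrp4b to another NLRP4 gene did not overlap between genotypes. The count ratio of Nlrp4b to Nlrp4a was 0.453, 0.451 and 0.430 in knockout libraries and 0.647, 0.613 and 0.677 in wild-type libraries. The groups did not overlap, and the ratio in knockout was 0.689 of that in wild type (exact two-sided permutation p = 0.1, the smallest that 3 against 3 libraries allow). All knockout libraries lay lower for Nlrp4b and higher for Nlrp4a, so that this ratio could not overlap and its p was fixed by the levels. The ratio of Nlrp4b to Nlrp4f averaged 0.524 ± 0.0230 in knockout and 0.692 ± 0.0276 in wild type (SD, n = 3 each, exact permutation p = 0.1). Libraries overlapped for the ratio of Nlrp4b to Nlrp4c, at 24.7 ± 1.6 in knockout and 29.4 ± 3.26 in wild type (exact permutation p = 0.2), and for that of Nlrp4b to Nlrp4e, at 3.70 ± 0.708 in knockout and 4.01 ± 0.328 in wild type (exact permutation p = 0.6). The ratio of Nlrp14 to Nlrp4a was 1.78 ± 0.346 in knockout and 1.77 ± 0.108 in wild type, with overlapping libraries (exact permutation p = 1). The 8 ratios computed were picked with the levels known, and a p of 0.1 was also the result for Nlrp9a over Nlrp9b and over Nlrp9c. Ratios of Nlrp4b rest on the same counts as its call and are no separate evidence. How often ratios of other gene pairs do not overlap was not computed.

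Within the NLRP4 group the make-up of the counts differed. Nlrp4b held 18.3 ± 0.410% of the group's counts in knockout and 23.4 ± 0.746% in wild type, and Nlrp4a held 41.1 ± 0.819% in knockout and 36.2 ± 0.655% in wild type (SD, n = 3 each). Neither pair of ranges overlapped, beside 47.8% of all tested genes whose CPM did not overlap between genotypes. Shares of a group add up to a fixed total, so that a fall of Nlrp4b by itself raises the share of Nlrp4a. How often such shares or totals do not overlap for other genes was not computed. Nlrp4f held 34.9% in knockout and 33.8% in wild type, Nlrp4e 5.06% in knockout and 5.85% in wild type, and Nlrp4c 0.740% in knockout and 0.803% in wild type. The 5 genes together took 0.270% to 0.280% of all gene counts in knockout libraries and 0.297% to 0.309% in wild-type libraries, again without overlap. These totals include the fall of Nlrp4b and use counts without TMM factors.

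Within the NLRP9 group the shares moved less. Nlrp9a held 29.0% to 29.7% of the group's counts in knockout libraries and 26.9% to 28.1% in wild-type libraries. Nlrp9b held 34.9 ± 0.637% in knockout and 34.9 ± 0.682% in wild type, and Nlrp9c 35.8 ± 0.951% in knockout and 37.7 ± 1.13% in wild type. The group as a whole took 0.174% of gene counts in either genotype.

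**Figure D5:**
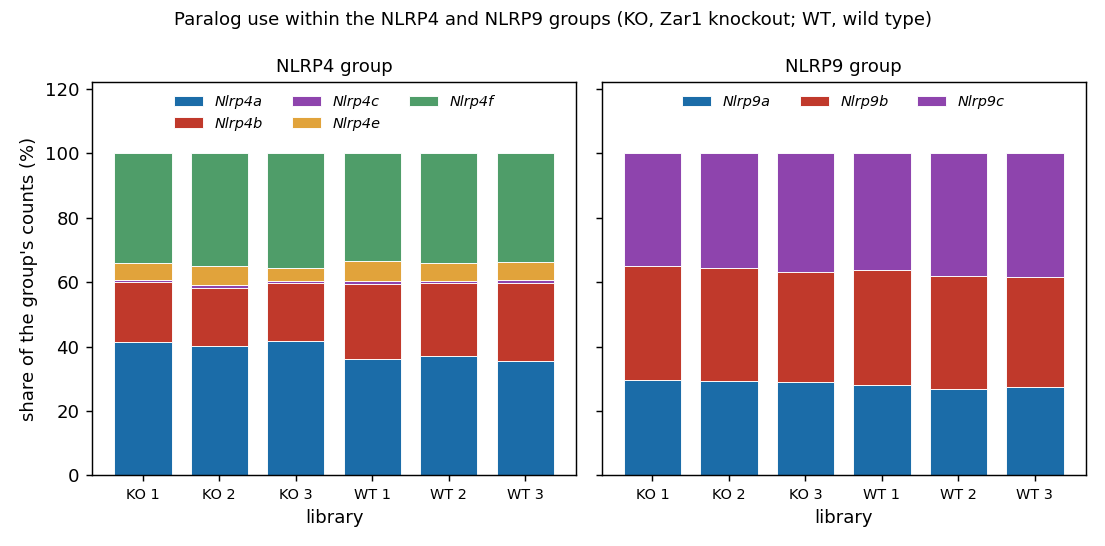
Share of each paralog in the counts of its group (stacked bars, %, adding up to 100) in the 6 libraries, knockout left of wild type. Nlrp4b (red, left panel) is narrower in the knockout libraries, at 17.9% to 18.7%, than in the wild-type libraries, at 22.7% to 24.1%, while the NLRP9 panel is close to level.

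Per length, Nlrp14 led the paralogs and Nlrp4c came last. Levels were counts per length of merged exons, scaled to the same total in each library (TPM). Nlrp14 stood at 1845 ± 331 TPM in knockout and 1839 ± 102 TPM in wild type (SD, n = 3 each), between ranks 51 and 81 of all genes over the 6 libraries. Nlrp4f followed at 807 ± 27.1 TPM in knockout and 887 ± 20.7 TPM in wild type. Nlrp4a had 759 ± 13.1 TPM in knockout and 760.4 ± 10.1 TPM in wild type, and within each genotype the libraries of these 2 genes did not overlap. Nlrp9b had 531 ± 41.7 TPM in knockout and 550.4 ± 27 TPM in wild type. Nlrp4b had 364 ± 4.28 TPM in knockout and 529 ± 26.7 TPM in wild type, where its libraries overlapped with those of Nlrp9b. Nlrp9a had 478 ± 34.2 TPM in knockout and 463 ± 29.4 TPM in wild type, above Nlrp4b in knockout and below it in wild type. Nlrp9c lay at 342 ± 15 TPM in knockout, just below Nlrp4b, and at 373 ± 17.6 TPM in wild type. Besides Nlrp9b and Nlrp4b in wild type, Nlrp9b and Nlrp9a overlapped in knockout, and no other neighbours in the order did. Nlrp4e and Nlrp4c came last, Nlrp4e at 133 ± 26.2 TPM in knockout and 175 ± 13.5 TPM in wild type, and Nlrp4c at 16.5 ± 0.897 TPM in knockout and 20.4 ± 2.56 TPM in wild type. With the length of the longest transcript in place of merged exons the first 3 and the last 2 places kept their holders. Nlrp4b then stood in place 7 in knockout and place 4 in wild type, and Nlrp9c in place 4 in knockout and place 5 in wild type.

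The start regions of some paralogs shared short motifs. The RefSeq promoter table (GRCm38.p6, 250 bases before to 50 after a start) held 8 of the 9 genes, all but Nlrp14. The letters CANNTG, the E-box that basic helix-loop-helix proteins such as the oocyte factor FIGLA can bind, were in all 8, as in 72.3% of 32851 promoters. The homeobox letters TAATTG and TAATTA, searched on both strands like the E-box, were in 8% and 5.29% of all promoters. Nlrp9a held both, Nlrp9b held TAATTG, and the letters are not in the window of the other 6 genes. Parts of the promoters of Nlrp4a, Nlrp4b and Nlrp4c, from base -100 to base 29 around the annotated start, are printed because they share a pair of E-boxes (capitals) that spans nearly the same distance, 33, 33 and 32 bases between the first letters.
Nlrp4a chr7:26435514-26435643 (+): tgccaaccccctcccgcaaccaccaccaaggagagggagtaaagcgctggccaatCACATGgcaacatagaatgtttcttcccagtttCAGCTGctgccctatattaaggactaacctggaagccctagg
Nlrp4b chr7:10687693-10687822 (+): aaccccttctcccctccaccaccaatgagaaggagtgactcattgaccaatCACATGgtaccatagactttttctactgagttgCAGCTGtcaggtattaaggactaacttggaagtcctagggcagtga
Nlrp4c chr7:6045061-6045190 (+): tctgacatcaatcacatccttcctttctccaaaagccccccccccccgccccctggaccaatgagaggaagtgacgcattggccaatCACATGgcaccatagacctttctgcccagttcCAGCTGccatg
The first of these E-boxes lies in the 12 letters CCAATCACATGG, the longest stretch around it that the 3 promoters share. On either strand 7 of 32851 promoters (0.0213%) hold this stretch, 4 of them of these 3 genes. It was searched after the 3 promoters had been read. Nlrp4b, which was called lower, and Nlrp4a, which was not called, each have 2 promoters listed. The 2 of Nlrp4b overlap and hold the same copy of the stretch, which therefore entered the 4 above more than once. Of Nlrp4a only the printed promoter holds the stretch. The promoter of Nlrp4c, which was not called, holds it too.

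Nlrp9a and Nlrp9c also share a stretch before their starts, and parts of 140 bases that end 9 bases after their only E-box are printed to show where they part. Capitals mark the E-box and the homeobox letters, which Nlrp9a has and Nlrp9c lacks in this window.
Nlrp9a chr7:26534817-26534956 (+): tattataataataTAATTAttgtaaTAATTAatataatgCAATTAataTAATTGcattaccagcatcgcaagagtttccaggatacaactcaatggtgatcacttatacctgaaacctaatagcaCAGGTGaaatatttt
Nlrp9c chr7:26403811-26403950 (-): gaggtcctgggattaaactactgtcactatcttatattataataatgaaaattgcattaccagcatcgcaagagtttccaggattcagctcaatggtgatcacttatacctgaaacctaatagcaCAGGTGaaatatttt
A match of letters is a description and not a bound site, and Nlrp9a and Nlrp9c were both uncalled in the comparison.

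Of 14 oocyte transcription factors listed, 13 were tested, and 5 were higher and 2 lower in knockout. Over all tested genes 14.9% were called higher and 18.5% lower, and the counts of the lists below stand beside the same shares. The 4 with the smallest adjusted p were Nobox, whose protein binds such homeobox letters, with a log2 fold change of 1.41 ± 0.07, Gtf2a1l, a TFIIA subunit gene, at 0.77 ± 0.08, Foxr1, a forkhead factor, at 0.61 ± 0.09, and Figla at 0.91 ± 0.15 (edgeR adjusted p-values of 1.15e-05, 0.000180, 0.00119 and 0.00183). Figla had 23.7 ± 0.858 CPM in knockout and 12.6 ± 2.13 CPM in wild type (SD, n = 3 each).

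Of 21 other NLR genes 9 were tested, and 2 were higher and 3 lower in knockout. The median log2 fold change of these 9 was 0.27. Nlrp5, the maternal gene also known as Mater, rose to 1030.5 ± 131 CPM in knockout, against 723 ± 71.6 CPM in wild type (SD, n = 3 each, log2 fold change 0.51 ± 0.11, edgeR adjusted p = 0.00666). Naip1, of the NAIP sensors of bacterial proteins, fell to 16.0 ± 2.77 CPM in knockout, against 53.2 ± 7.20 CPM in wild type (log2 fold change -1.73 ± 0.16, edgeR adjusted p = 9.11e-05). Nod2, a sensor of bacterial cell wall fragments, fell to 10.2 ± 0.706 CPM in knockout, against 15.2 ± 1.38 CPM in wild type (edgeR adjusted p = 0.0122). Nlrp4g, a pseudogene of the NLRP4 group on chromosome 9, fell to 59.6 ± 6.19 CPM in knockout, against 85.3 ± 5.08 CPM in wild type (log2 fold change -0.52 ± 0.10, edgeR adjusted p = 0.00421). It shares up to 96 identical bases with Nlrp4f, which did not pass the test. Gm47180, a pseudogene on chromosome 9 outside this list, shares up to 104 identical bases with Nlrp4f. It was also called lower (log2 fold change -0.69 ± 0.18, edgeR adjusted p = 0.017). Nlrp3, the best known inflammasome sensor, had 0 to 5 counts in knockout libraries and 1 to 6 in wild-type libraries.

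The subcortical maternal complex, the protein assembly under the oocyte surface to which NLRP5 belongs, had 7 tested genes, of which 2 were higher and the other 5 were not called. Padi6, which encodes a peptidylarginine deiminase of that complex, rose by 0.63 ± 0.07 on the log2 scale (edgeR adjusted p = 0.000302), and Nlrp5 is the other.

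Inflammasome effectors were scarce. Of 9 listed genes 4 were tested, 1 higher and 1 lower, and all 9 together took 0.00465% to 0.00564% of gene counts in knockout libraries and 0.00674% to 0.00741% in wild-type libraries. Nek7, a kinase that NLRP3 needs for assembly, made up most of that and fell to 49.5 ± 3.67 CPM in knockout, against 68.2 ± 4.30 CPM in wild type (SD, n = 3 each, edgeR adjusted p = 0.00548). Gsdmd, the gene of the pore protein gasdermin D, was called higher on 84, 12 and 12 counts in knockout libraries and 6, 1 and 1 in wild-type libraries (edgeR adjusted p = 0.0211). Il1b had 1, 0 and 0 counts in knockout libraries and 0 in each wild-type library.

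A list of 12 genes of proteins linked to NLRP4, NLRP9 or NLRP14, or to nucleic acid sensing, had 9 tested genes, 1 higher and 2 lower. Ddx3x, an RNA helicase gene, fell to 1394 ± 63.1 CPM in knockout, against 1758 ± 69.1 CPM in wild type (SD, n = 3 each, edgeR adjusted p = 0.00441). Tbk1, the kinase that human NLRP4 has been reported to restrain, fell to 9.95 ± 1.49 CPM in knockout, against 16.4 ± 1.32 CPM in wild type (edgeR adjusted p = 0.00717). Uhrf1, which encodes a factor of DNA methylation maintenance, rose to 458 ± 70.5 CPM in knockout, against 349.7 ± 6.03 CPM in wild type (edgeR adjusted p = 0.0192). Sting1, the DNA-sensing adaptor, had 0 counts in each of the 6 libraries, which allows up to 3 counts per library at 95% confidence, for counting error only. Slc8b1, a mitochondrial calcium exchanger gene, had 0 to 4 counts in knockout libraries and 1 to 5 in wild-type libraries.

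Most of the nearest tested genes beside the paralogs were not called, and those called moved in either direction. Over all tested genes 33.4% were called. Gm45379, a predicted gene and the nearest tested neighbour beyond Nlrp4b in the GRCm38 annotation, fell to 1.58 ± 0.467 CPM in knockout, against 13.3 ± 2.62 CPM in wild type (SD, n = 3 each, log2 fold change -3.08 ± 0.27, edgeR adjusted p = 7.45e-05). Gm6900, the nearest tested gene on the other side of Nlrp4b, was not called (log2 fold change 0.19 ± 0.45, edgeR adjusted p = 0.780). Zfp787, beside Nlrp4c, rose by 1.05 ± 0.17 on the log2 scale (adjusted p = 0.00196), and Mfsd14b, beside Nlrp4f, fell by 0.40 ± 0.10 (adjusted p = 0.0139), while the paralogs beside them were not called. Cyp2a4, a cytochrome P450 gene beside the cluster of Nlrp4a, Nlrp9a and Nlrp9c, rose to 2.11 ± 0.780 CPM in knockout, against 0.848 ± 0.228 CPM in wild type (log2 fold change 1.32 ± 0.38, edgeR adjusted p = 0.0273). Ceacam20, beside Nlrp9b, had 65.5 ± 4.35 CPM in knockout and 54.8 ± 5.23 CPM in wild type and did not pass (adjusted p = 0.0788).

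For the member of each group with the highest mean CPM in wild type, genes within 4-fold of it in mean CPM were compared. Those with the most similar pattern over the 6 libraries were ranked by Pearson's r of log2 CPM. For Nlrp14 these were Gdf9 (r = 0.98), Dppa3 (0.93) and Tulp3 (0.92), of 320 genes compared. Gdf9, an oocyte growth factor gene, had 3274 ± 395 CPM in knockout and 3087 ± 149.7 CPM in wild type (SD, n = 3 each), so that it too spread widely in knockout and was not called. For Nlrp4a they were Psmd8, Prdm6 and Scap, each at r = 0.99, of 710 genes, and all 3 were called higher while Nlrp4a was not. For Nlrp9c they were Rnf114 at r = 0.997, Zkscan17 at 0.93 and Rpl5 at 0.90, of 1326 genes, and none of these was called. These values describe 6 libraries that share their depth and scaling with all genes.

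The gene counts behind these values summed to 35066851, 37946223 and 37253021 in knockout libraries and 39148833, 35358795 and 32126555 in wild-type libraries. Zar1 itself had 69, 96 and 226 counts in knockout libraries and 15245, 13612 and 12810 in wild-type libraries, as their labels have it. Of 10 oocyte markers all were tested, 5 higher and 1 lower in knockout, and together they took 2.17% to 2.36% of gene counts in knockout libraries and 2.04% to 2.17% in wild-type libraries. Of 15 cumulus and granulosa cell markers 10 were tested, 2 higher and 1 lower. Their summed share was 0.0121% to 0.0134% in knockout libraries and 0.0106% to 0.0119% in wild-type libraries. Most of it came from Nr5a2 and Cyp19a1. Nr5a2, called higher, had 77.9 ± 5.50 CPM in knockout and 51.8 ± 3.17 CPM in wild type (SD, n = 3 each). Cyp19a1, not called, had 42.9 ± 7.72 CPM in knockout and 47.8 ± 5.72 CPM in wild type. Kitl, called lower, fell to 0.797 ± 0.472 CPM in knockout, against 4.02 ± 0.321 CPM in wild type. Theca, leukocyte and erythroid markers had summed shares of at most 0.000690% in any library. Their part in the results was not tested. In pools of whole oocytes fewer cells and less RNA per cell cannot be told apart, and all levels are relative within a library.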

How the data were processed

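PolyA RNA of 6 pools of GV oocytes was sequenced, 3 Zar1 knockout and 3 wild type. The deposited values are whole-number counts of reads for each gene in a library. The submitters' processing notes name HTSeq 0.13.5, STAR 2.7.8a, cutadapt 2.8 and bcl2fastq 2.20.0.422, and the mm39 genome build. The sources used here give no strand setting, read length or annotation release.

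The comparison used R 4.3.3 with edgeR 4.0.16 (TMM, filterByExpr, quasi-likelihood F test, genotype as the only term, Benjamini-Hochberg over all 16473 tested genes, threshold 0.05), after a test on simulated data. Standard errors are the absolute log2 fold change over the root of F. Of 53700 gene rows 52093 had a symbol. DESeq2 1.42.0 and limma 3.58.1 were alternatives. No 2 libraries agreed within sampling noise. Counting summary rows were left out, among them reads outside genes (4.84% to 4.98% in knockout and 5.39% to 5.70% in wild type) and reads in more than 1 gene (4.21% to 4.42% in all).

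Transcripts came from GENCODE M21 and promoters from RefSeq, both on GRCm38 and not on mm39. Coding sequences were aligned with Biopython 1.88; proteins were not used here. Members and lists were chosen with earlier results of these data known. All 9 paralogs are named. Other lists name up to 4 called genes with the smallest adjusted p, or 2 where fewer than 2 pass. Il1b, Nlrp3, Figla's level, Sting1, Slc8b1, Cyp19a1, Gm47180 and the ratios were picked after their values were seen.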

Additional observations from a re-analysis of the deposited data

How the results depend on the processing

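Nlrp4b kept its fall in all 17 alternatives and its call in 16. No paralog was called higher and 1 lower under RLE, upper-quartile or no scaling factors, the CPM filter, DESeq2, limma-voom, the replicate block and without mitochondrial genes. With no filter 2 were lower, the second being Nlrp4e (-0.32, adjusted p = 0.0162). With GC and length offsets 4 were higher (Nlrp4a, Nlrp9a, Nlrp9b and Nlrp9c, the last reversed to 0.23), and with offsets and replicate block 2 (Nlrp4a and Nlrp9a) were higher and 0 lower in edgeR; the cause was not tested. The offsets covered 99.7% of tested genes. Leaving out each library in turn gave 0 to 1 paralogs higher, 1 to 2 lower and 3826 to 5634 genes called in all; Nlrp14 was called without knockout replicate 3 (0.23) and Nlrp4e without knockout replicate 2 (-0.46). The replicate numbers paired no samples (correlations of deviations -0.00898, -0.0420 and -0.0252), and the replicate block gave 4838 genes called. Fold changes of Nlrp9b, Nlrp9c, Nlrp4f and Nlrp14 near 0 changed sign in 1 to 3 alternatives each, Nlrp9c among them at 0.00738 with upper-quartile factors. Levels per length with the longest transcript, added after seeing the data, changed the order of the middle 4 genes. For each paralog, Nlrp4a and Nlrp4b among them, the offsets moved the log2 fold change more than leaving out any library did. Nlrp4e also rests on shared stretches.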
